A study of Homo sapiens with 14 samples.

Results

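The clustered protocadherin genes were followed through the peak lists of a CUT&Tag experiment in LX-2 cells, an established human hepatic stellate cell line. Members were the protein-coding genes on chromosome 5 between 140 and 141 Mb whose symbols begin with PCDHA, PCDHB or PCDHG in the GENCODE annotation of hg19. This gave 53 of the 19821 protein-coding genes tested, 15 in the alpha cluster (chr5:140165721-140391932), 16 in the beta cluster (chr5:140430959-140628933) and 22 in the gamma cluster (chr5:140710081-140892544). A member was counted as called in a list when a peak lay within 1 kb of the start of any of its protein-coding transcripts.

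CUT&Tag cuts and tags DNA next to an antibody-bound protein, so a peak marks where the target sat on chromatin. The 14 lists covered phosphorylated JUN (p-JUN), an AP-1 transcription factor, and the histone marks H3K4me3, H3K27me3 and H3K27ac, found at active promoters, at Polycomb-repressed chromatin and at active promoters and enhancers, respectively. All libraries came from wild type LX-2 cells held on a matrix, soft or stiff, for 2 days. Each matrix had 2 libraries of p-JUN, of H3K4me3 and of H3K27me3, whereas H3K27ac had 1 merged list on each. The histone libraries carried titles with 2K for soft and 40K for stiff, and the p-JUN libraries labelled stiff were titled TCP, the study's abbreviation for tissue culture plastic. A p-JUN difference between the soft and stiff labels could therefore not be told apart from one between a soft gel and plastic. LX-2 is a single cell line, and p-values measured only the spread between these libraries.

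Clustered protocadherins are cell surface adhesion proteins best known from neurons, where each cell uses a small set of them as an identity tag. Each variable exon has its own promoter, and in the alpha and gamma clusters the chosen exon is spliced to constant exons shared by the whole cluster, whereas each beta gene stands alone. Most of these promoters carry a short conserved element around the letters CGCT that the insulator protein CTCF binds, and CTCF with the cohesin ring brings a chosen promoter to distant enhancers.

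The conserved element is shown first, since its flanking bases differ between the clusters. The lines below give 40 bases of the GRCh37 (hg19) plus strand, the strand of all members, with CGCT in capitals. They are the 6 members of highest mean H3K4me3 fold (PCDHB5, PCDHB2, PCDHB16, PCDHGC3, PCDHGA11 and PCDHGB4), relatives that resemble some of them (PCDHB13 and PCDHB8, and PCDHGB5), and members of each cluster without a peak (PCDHA3, PCDHA8, PCDHB7 and PCDHGA10).
PCDHA3, chr5:140180571-140180610: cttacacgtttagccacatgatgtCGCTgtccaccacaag
PCDHA8, chr5:140220707-140220746: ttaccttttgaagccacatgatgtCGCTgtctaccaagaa
PCDHB2, chr5:140474121-140474160: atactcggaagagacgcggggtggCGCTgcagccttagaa
PCDHB5, chr5:140514753-140514792: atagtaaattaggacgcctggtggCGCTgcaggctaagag
PCDHB7, chr5:140552139-140552178: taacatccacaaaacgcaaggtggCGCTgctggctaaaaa
PCDHB16, chr5:140561877-140561916: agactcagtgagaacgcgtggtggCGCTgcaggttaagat
PCDHB8, chr5:140557350-140557389: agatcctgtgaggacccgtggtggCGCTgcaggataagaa
PCDHB13, chr5:140593429-140593468: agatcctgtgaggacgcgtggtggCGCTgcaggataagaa
PCDHGB4, chr5:140767176-140767215: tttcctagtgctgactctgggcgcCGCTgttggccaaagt
PCDHGB5, chr5:140777422-140777461: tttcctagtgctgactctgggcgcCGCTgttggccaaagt
PCDHGA10, chr5:140792490-140792529: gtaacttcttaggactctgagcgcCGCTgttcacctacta
PCDHGA11, chr5:140800531-140800570: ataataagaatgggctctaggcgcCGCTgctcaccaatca
PCDHGC3, chr5:140855439-140855478: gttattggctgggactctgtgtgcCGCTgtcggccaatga

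In the 300 bases from 250 before to 50 after the start, CGCT on the sense strand was found in 51 of 53 members and in 59.9% of all protein-coding genes. PCDHA9 and PCDHGC5 were the members without it. In the 100 bases just before the start it was found in 47 of 53 members and in 32.0% of all genes. Where a member held several copies, the copy most like those of the 36 members with a single copy was taken, and its median position relative to the start was -46, -63 and -49 bases in the alpha, beta and gamma clusters. The longer form GNNGGCGCT, which contains CGCT, was found on the sense strand in 14 of 16 beta members and in no alpha or gamma member, against 6.16% of all genes. Searched on both strands it was in 10.8% of all genes and in 2 of 22 gamma members. The median identity of the 40-base windows was 60% within alpha, 62.5% within beta and 60% within gamma, and 45% between any pair of clusters. In PCDHAC1, PCDHAC2, PCDHB1, PCDHB6, PCDHGB7 and PCDHGC4 the window was under 60% identical to that of any other member. None of these 6, singled out after the calls were known, had an H3K4me3 peak. Of all 53 members 36 had none, among them all 15 alpha members and 21 in beta and gamma. The opening bases of the PCDHGB7 window match the end of the PCDHGB6 window, with CGCC in place of CGCT. The low identity of PCDHGB7 thus describes a different copy and does not show that the element is missing. GNNGGCGCT was present in the 9 beta members with H3K4me3 in at least 1 library and in 5 of the 7 without. These matches are descriptions of sequence, and CTCF itself was not among the targets of the lists.

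H3K4me3 marked a minority of the members, and the alpha cluster held none. A member had an H3K4me3 peak in all 4 libraries in 10 of 53 cases, 6 in beta and 4 in gamma, while 62.8% of all protein-coding genes were called in all 4. A further 7 members, 3 in beta and 4 in gamma, were called in 1 to 3 of the libraries, against 2.69% of all genes. By library the count was 14 and 14 members on soft and 13 and 11 on stiff, out of 53. No member was called in both soft and in no stiff library (background 0.177% of genes), and none in both stiff and in no soft library (background 0.207%). The mean was 14 ± 0 members on soft and 12 ± 1.41 on stiff (SD, n = 2 each), and the two-sided exact permutation test gave p = 0.33, the smallest value that 2 libraries against 2 allow. The member counts did not overlap, and no outcome of this design could have passed a threshold of 0.05. Among all protein-coding genes, H3K4me3 was called at 63.7% in soft 1, 64.3% in soft 2, 63.8% in stiff 1 and 64.6% in stiff 2. These shares overlapped between the matrices. With only peaks whose -log10 q (the peak caller's significance) was at least 10, the member counts overlapped as well. They were then 10 and 13 on soft and 11 and 11 on stiff.

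**Figure D1:**
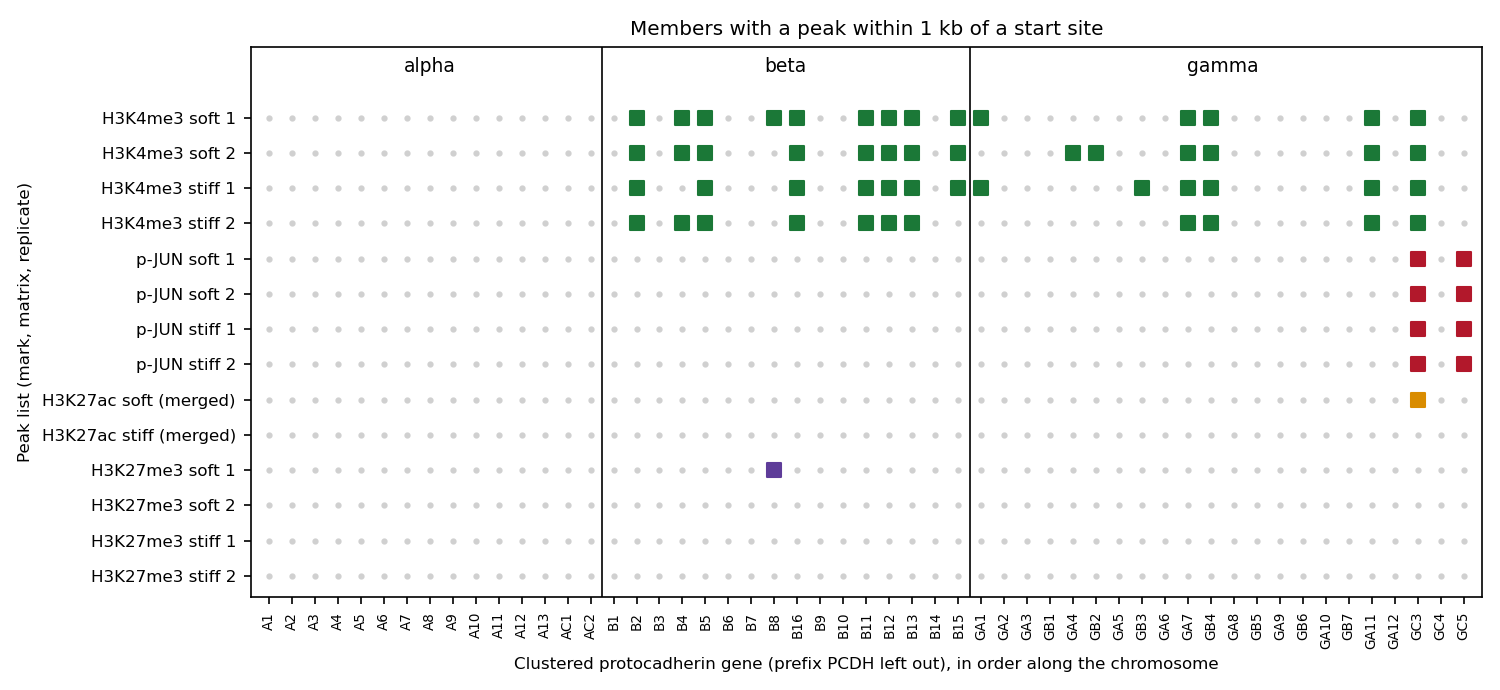
Filled squares mark the members (x axis, in chromosomal order, 53 genes) with a peak no farther than 1 kb from a start in each of the 14 lists (y axis), and small grey dots mark members without a peak. The alpha columns are empty in all 14 lists, H3K4me3 recurs at the same 10 beta and gamma members, and p-JUN occurs at PCDHGC3 and PCDHGC5.

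The members called in all 4 H3K4me3 libraries were PCDHB2, PCDHB5, PCDHB16, PCDHB11, PCDHB12 and PCDHB13 in the beta cluster, and PCDHGA7, PCDHGB4, PCDHGA11 and PCDHGC3 in the gamma cluster. Their products are all adhesion proteins of the same build, an ectodomain of cadherin repeats and a single pass through the membrane. The value given for each peak is its fold, the fragments at the summit over the local background of the same library. A small constant (pseudocount) was added to both parts of this ratio. The number of fragments at the summit is given with it.

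PCDHGC3, a C-type isoform at the far end of the gamma array and the member with the highest mean fold, had folds of 12.7 and 13.2 on soft and 12.8 and 12.8 on stiff. Fragments at the summit numbered 236 and 312 for soft 1 and soft 2 and 284 and 408 for stiff 1 and stiff 2, the most of any member. PCDHGC3 also had the widest peaks, 1061 and 1156 bases on soft and 1169 and 1253 on stiff. The matrices overlapped in fold for this gene, and its folds exceeded those of 92.1%, 92.6%, 88.2% and 87.0% of all peaks in the same lists.

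PCDHGA11, of the gamma A subfamily, had folds of 12.5 and 11.3 on soft and 10.6 and 14.3 on stiff, with 31, 29, 28 and 53 fragments. PCDHGB4, of the gamma B subfamily, had folds of 10.6 and 10.3 on soft and 10.4 and 11.5 on stiff, with 81, 96, 86 and 144 fragments. In both genes the matrices overlapped. PCDHGA11 and PCDHGC3 thus had like folds on very different numbers of fragments. The local background was 1.57 to 2.79 fragments at the first and 17.7 to 31.0 at the second. The constant added to both parts of the ratio lowers the fold more where the background is small, so the likeness rests in part on it.

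Of the beta members, PCDHB5 had the highest mean fold, with 10.77 and 10.82 on soft and 10.99 and 10.91 on stiff on 27, 30, 28 and 31 fragments. Both stiff values of PCDHB5 lay above both soft values, by a small margin. PCDHB2 had folds of 8.95 and 11.3 on soft and 8.38 and 10.8 on stiff on 24, 30, 19 and 37 fragments. PCDHB16 had folds of 8.18 and 10.7 on soft and 9.61 and 10.1 on stiff on 48, 67, 53 and 81 fragments. In PCDHB2 and PCDHB16 the replicates of a matrix differed by more than the matrices did. The 4 remaining members, PCDHB11, PCDHB12, PCDHB13 and PCDHGA7, had mean folds of 8.13 ± 0.641, 6.81 ± 1.48, 7.63 ± 0.880 and 8.51 ± 0.597 (SD, n = 4 libraries).

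PCDHB5 was the single member of 10 whose stiff folds all lay above its soft folds, where 44.9% of the 12445 genes called in all 4 libraries did so. None of the 10 lay wholly below, against 6.62% of those genes. The median fold over the 10 members on soft was 8.78 and 10.5, and on stiff 9.46 and 10.5. The difference of 0.337 changed sign when soft 1 or stiff 2 was left out. With all libraries it gave p = 1 in the two-sided exact permutation test (n = 2 libraries each).

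**Figure D2:**
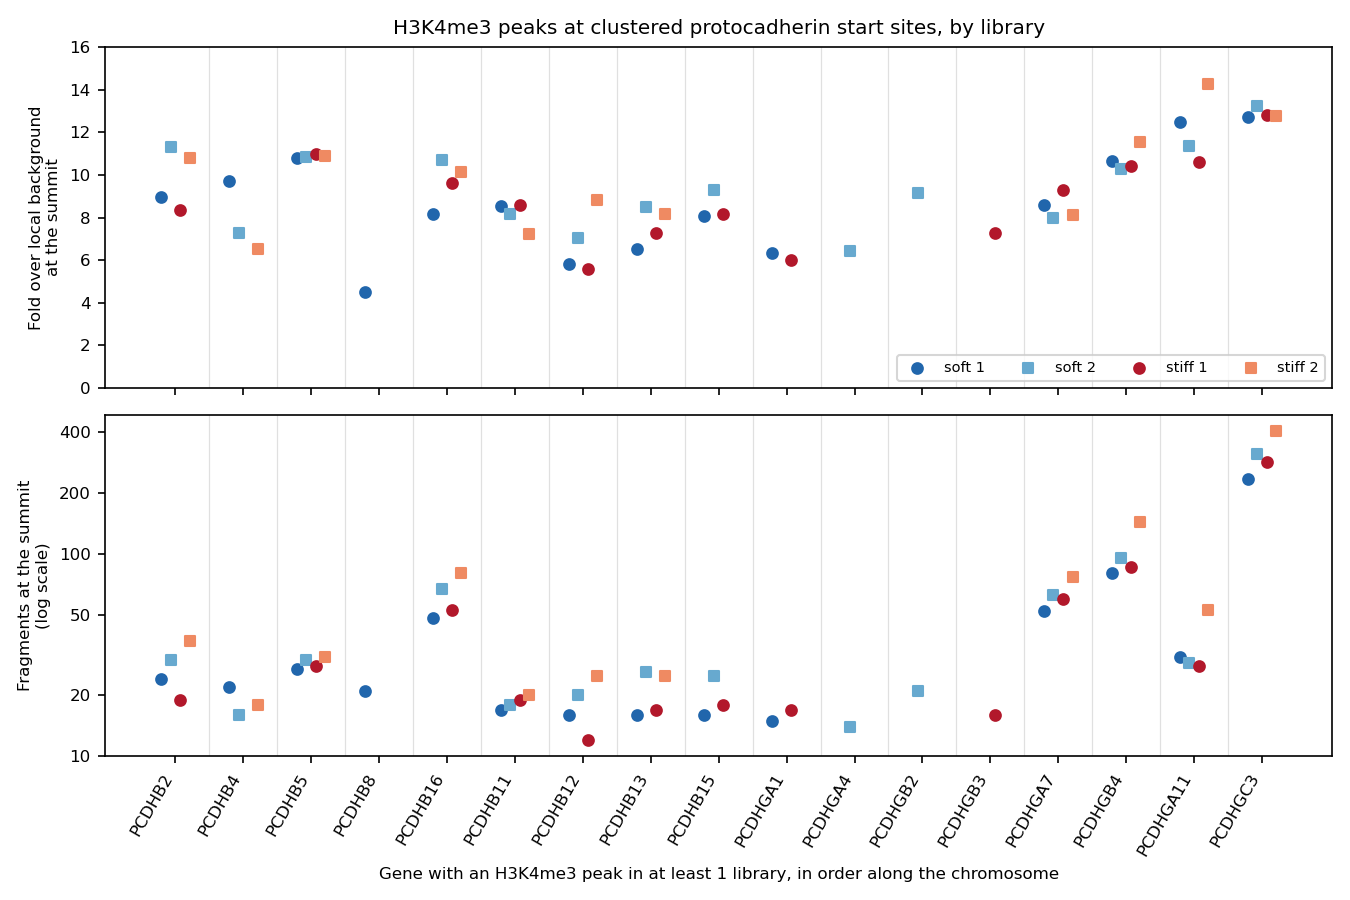
Each point is the best H3K4me3 peak of a member (x axis, 17 genes with a peak in at least 1 library) in a library (colour and shape), as fold over the local background in the upper panel and as fragments at the summit on a log scale in the lower panel. PCDHGC3 stands at 236 to 408 fragments, whereas the members with a peak in 1 to 3 libraries hold 14 to 25 fragments.

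By their medians, the members with H3K4me3 in all 4 libraries had peaks of like fold to other genes and of lower width and significance. The median fold of the 10 members was 8.78, 10.5, 9.46 and 10.5 in soft 1, soft 2, stiff 1 and stiff 2, beside 8.98, 9.25, 9.59 and 9.72 for all genes called in all 4 libraries. Their median width was 637, 667, 710.5 and 667.5 bases, beside 1246, 1263, 1250 and 1332 for those genes. Their median -log10 q, the peak caller's significance after correction for multiple tests, was 24.7, 24.5, 22.6 and 35.7, beside 97.3, 124, 133 and 193. PCDHGC3 was an exception in significance, with 170, 228, 205 and 292, above the all-gene median in each library.

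The 7 members with peaks in 1 to 3 libraries were PCDHB4, PCDHB8, PCDHB15, PCDHGA1, PCDHGA4, PCDHGB2 and PCDHGB3. PCDHB4 had peaks in soft 1, soft 2 and stiff 2 (folds 9.70, 7.29 and 6.52), and PCDHB15 in soft 1, soft 2 and stiff 1 (8.08, 9.28 and 8.15). PCDHGA1 was called in soft 1 and stiff 1, with folds of 6.32 and 6.03. PCDHB8 was called in soft 1 (4.49), PCDHGA4 and PCDHGB2 in soft 2 (6.44 and 9.14), and PCDHGB3 in stiff 1 (7.29). Their 12 peaks held 14 to 25 fragments with -log10 q of 7.40 to 18.3, while the lowest q in the 4 lists stood at 5.01 to 5.25. The 40 peaks of the members called in all 4 libraries ranged from 12 to 408 fragments and from 6.47 to 292, so the ranges overlapped. Where such a member lacked a peak, the list does not give the signal that was there.

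H3K4me3 summits lay over the beginning of the variable exon. All 40 summits of the 10 members were downstream of the gene's 5′ end, at 37 to 486 bases with a median of 242. Of them, 30 lay in the coding sequence of the first exon and 10 in its untranslated part. The peaks themselves covered the CGCT copy in 6 of the 40 cases, the 4 peaks of PCDHGC3 and 2 of PCDHGA7. The first coding exon is long in these genes, with medians of 2442, 2386.5 and 2460 bases in the alpha, beta and gamma clusters. Of the 12 peaks of the other 7 members, 5 summits were coding, 5 were exonic and not coding, and 2 lay upstream of the gene, at PCDHGA1 in stiff 1 and at PCDHGB3. The peak at PCDHGB3 was the 1 of these 12 that covered the CGCT copy.

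Base composition overlapped between called and uncalled members. Over the 300 bases at the start, the median count of CpG dinucleotides was 9.5 in the 10 members called in all 4 libraries, 6 in the 7 called in some and 7 in the 36 not called, where all protein-coding genes had a median of 18. The median GC content was 43.2%, 38% and 39% in these classes and 60.7% over all genes. PCDHAC1 had 27 CpG and 66% GC, the highest values of any member, without a peak in any list. Within the gamma cluster the 4 members called in all libraries had a median of 12.5 CpG, against 6 in the 14 not called. PCDHB11 was called in all libraries with 5 CpG.

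Part of the members' sequence was shared between members. Of the 50-base words from 200 bases before to 500 after the start, a median of 100% occurred once in the interval from 140 to 141 Mb, and 18 of 53 members had under 90% such words. These were 10 of the 15 alpha members, none of which was called for H3K4me3. In beta and gamma they were 5 of the 21 members without an H3K4me3 peak, 1 of the 7 called in some libraries and 2 of the 10 called in all. In the alpha cluster the share ran as low as 76.5%, at PCDHA6. PCDHGB4 and PCDHGB5 had 47.8% and 46.9%, and the 40 bases printed for them were identical, yet PCDHGB4 was called in 4 libraries and PCDHGB5 in none. PCDHB13 and PCDHB8 had 39.02% and 45.2% and windows that were 97.5% identical, and they were called in 4 libraries and in 1. Reads that fit several members equally could have been placed at either or dropped, so values at these 4 genes are uncertain. The same holds for missing peaks at the other members under 90%, and words were not searched outside the interval. Members without a peak also included many of unique sequence, such as 16 of the 36 with 100%, and the part of shared sequence in the missing peaks was not tested.

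**Figure D3:**
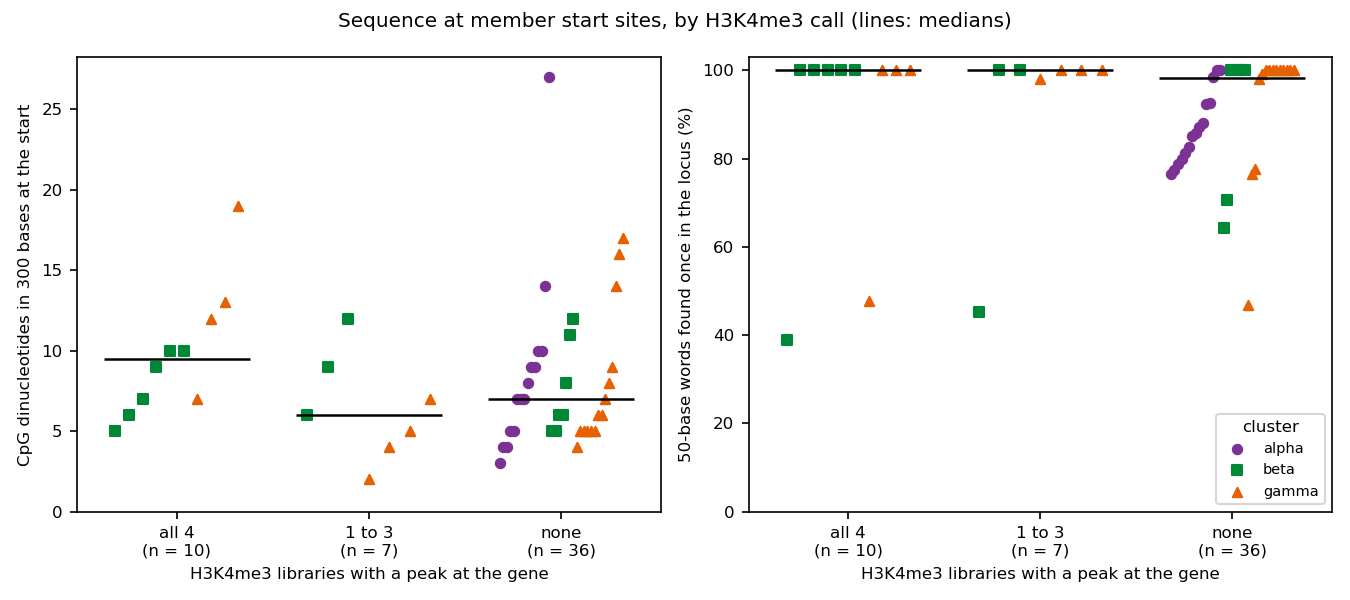
Each point is a member, grouped by the number of H3K4me3 libraries with a peak at the gene (x axis) and coloured by cluster, with horizontal lines at the medians. The left panel shows CpG dinucleotides in the 300 bases at the start (medians 9.5, 6 and 7), and the right panel the percentage of 50-base words found once in the locus, where 10 of the 18 values under 90% belong to the alpha cluster.

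The stretch of the locus with p-JUN was the 3′ end of the gamma cluster. PCDHGC3 and PCDHGC5, both C-type isoforms, had a p-JUN peak in all 4 libraries, 2 of 53 members against 38.2% of all protein-coding genes. No other member had a p-JUN peak in any library. No member was called on soft alone (background 0.928%) or on stiff alone (background 0.257%). The count was 2 in each library, so the difference between matrices was 0 (p = 1, two-sided exact permutation test, n = 2 libraries each).

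At PCDHGC3 the p-JUN folds were 6.75 and 7.14 on soft and 6.27 and 8.38 on stiff, on 34, 30, 22 and 30 fragments. The summits lay 136 to 682 bases downstream of the 5′ end, under the H3K4me3 peak. At PCDHGC5 the folds were 6.53 and 4.17 on soft and 5.76 and 7.26 on stiff, on 42, 22, 33 and 50 fragments. Those summits lay upstream, at -273 to -91 bases from the 5′ end, and PCDHGC5 had no H3K4me3 peak in any library. The matrices overlapped in fold at both genes, and the peaks ranked in the lower part of their lists, with 6.48% to 50.5% of peaks in the same list at lower fold.

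The 250 bases before each of these starts are printed because the genes share p-JUN and differ in H3K4me3 and in sequence. CGCT on the printed strand is in capitals.
PCDHGC3, chr5:140855264-140855513, plus strand: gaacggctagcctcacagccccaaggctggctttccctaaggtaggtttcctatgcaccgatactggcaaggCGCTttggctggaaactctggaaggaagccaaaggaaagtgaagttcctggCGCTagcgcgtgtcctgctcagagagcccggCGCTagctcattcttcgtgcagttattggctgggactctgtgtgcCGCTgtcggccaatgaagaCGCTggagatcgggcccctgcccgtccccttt
PCDHGC5, chr5:140868398-140868647, plus strand: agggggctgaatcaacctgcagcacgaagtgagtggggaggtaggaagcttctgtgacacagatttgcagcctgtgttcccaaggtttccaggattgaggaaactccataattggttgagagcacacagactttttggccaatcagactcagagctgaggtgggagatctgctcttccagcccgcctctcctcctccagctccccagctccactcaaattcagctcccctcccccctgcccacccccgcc

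The PCDHGC3 stretch held 5 copies of CGCT and 14 CpG, and the PCDHGC5 stretch 0 copies and 3 CpG. The AP-1 motif TGACTCA, searched on both strands, was in neither stretch and in none of the 8 p-JUN peaks at these genes. In the 300 bases at the start it was found in 1 of 53 members and in 3.81% of all genes.

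The p-JUN site of the locus with the most fragments lay inside the gamma cluster, away from every start. A peak of 891 bases at chr5:140888399-140889289 in soft 1 fell in an intron shared by all 22 gamma genes, overlapped no exon, and ended 3255 bases before the end of the cluster. All 4 libraries placed its summit at the same base, 20209 bases downstream of the PCDHGC5 start and 15220 bases from the nearest start of a coding gene. Soft 1 and soft 2 had folds of 9.20 and 8.03, and stiff 1 and stiff 2 had 8.19 and 9.04, on 199, 157, 140 and 172 fragments. In each library these were more fragments than at PCDHGC3 or PCDHGC5, and the matrices overlapped. By fold it was a middling peak, above 63.9% and 50.1% of the peaks in the soft lists and 52.2% and 57.1% in the stiff lists, and by -log10 q it was above 77.5% to 85.6%.

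The same place carried H3K27ac in both merged lists, with folds of 5.29 on soft and 5.75 on stiff on 53 and 47 fragments. The soft list had another H3K27ac peak beside it, at chr5:140887999-140888269 with a fold of 4.09 on 33 fragments, which the stiff list lacked. That peak ranked 14820 by -log10 q among the 18238 of the soft list, and the stiff list held 13322 peaks in all. H3K4me3 peaks of 1064 to 1291 bases overlapped the p-JUN site in all 4 libraries. Their folds were 6.04 and 6.81 on soft and 6.99 and 6.06 on stiff, on 36, 49, 45 and 58 fragments. In 3 of the 4 libraries their summits lay 679 to 766 bases upstream of the p-JUN summit, and in stiff 2 the distance was 137 bases. The H3K4me3 peaks reached an exon of PCDHGC3. No H3K27me3 peak was called there.

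The 280 bases around the shared p-JUN summit are printed with the AP-1 motif in capitals, here as TGAGTCA, the reverse complement of TGACTCA. Its centre lay 132 bases downstream of the summit.
gamma intron, chr5:140888737-140889016, plus strand: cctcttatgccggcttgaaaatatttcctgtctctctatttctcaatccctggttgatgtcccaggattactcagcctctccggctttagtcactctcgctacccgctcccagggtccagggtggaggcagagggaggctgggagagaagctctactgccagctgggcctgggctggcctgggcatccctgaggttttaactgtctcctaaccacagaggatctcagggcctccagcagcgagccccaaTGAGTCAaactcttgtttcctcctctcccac

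**Figure D4:**
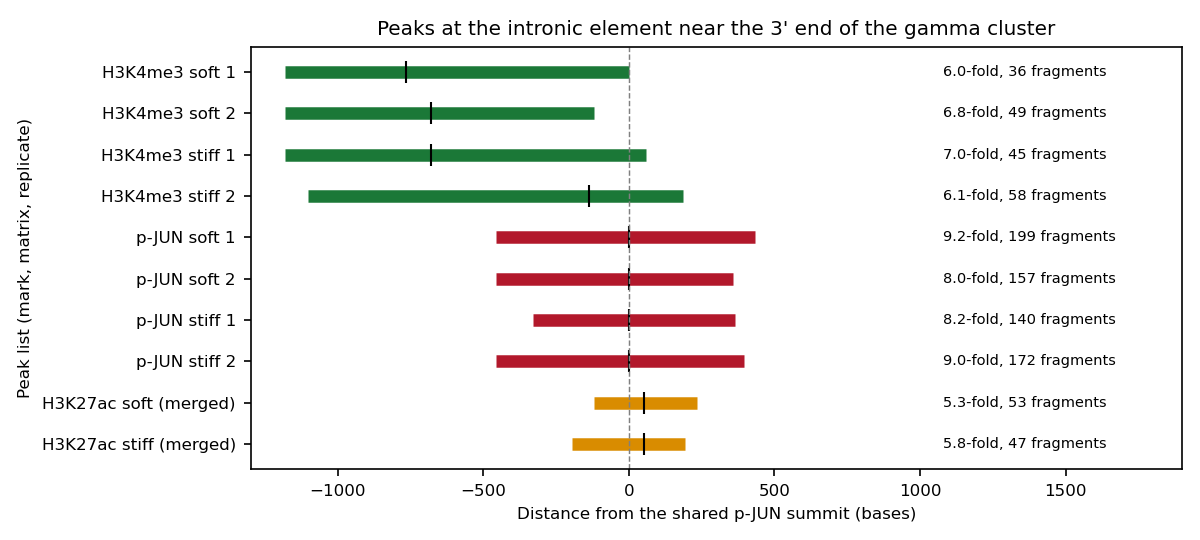
Bars show the peaks of 10 lists at the intronic site near the end of the gamma cluster, by distance in bases from the p-JUN summit (x axis) and by list (y axis), with black ticks at the summits and the fold and fragments beside each bar. The 4 p-JUN summits coincide, the H3K27ac summits lie 51 and 52 bases from them, and the H3K4me3 bars extend to the left.

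H3K27ac was nearly absent from the members' starts. The soft list had a peak at PCDHGC3, with a fold of 5.60 on 13 fragments, and the stiff list had none at any member. This was 1 of 53 members on soft (1.89%, exact 95% interval 0.0478% to 10.1%) and 0 of 53 on stiff (exact 95% interval 0% to 6.72%). No member was acetylated in both lists, where 21.2% of all genes were, and the soft-only call compared with 10.7% of all genes. The soft list was longer, with 18238 peaks against 13322, and with 1 merged list on each matrix there was no test. The -log10 q of the PCDHGC3 peak was 6.40, where the median of fragments at a summit in that list was 27.

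H3K27me3 was sparse over the clusters as well. A single member, PCDHB8, had a peak in any library, against 10.3% of all genes. It was called in soft 1, with a fold of 3.06 and a -log10 q of 1.61. Soft 1 had 1 such member and the other 3 libraries had 0 (difference 0.5 members lower on stiff, p = 1, two-sided exact permutation test, n = 2 libraries each). These lists were themselves short, covering 0.548% and 0.273% of the genome on soft and 0.189% and 0.192% on stiff, so weak methylation over the clusters was not detectable.

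In the alpha cluster H3K27me3 peaks covered 0.317% and 0.246% of the bases on soft and 0% in both stiff libraries (mean difference -0.281 percentage points, p = 0.33, two-sided exact permutation test, n = 2 libraries each). The covered share of the genome was also lower on stiff than on soft. Both soft libraries called the same place in the first exon of PCDHAC2, a C-type alpha isoform, at chr5:140347461-140347823 and chr5:140347380-140347936, beginning 1406 and 1325 bases after its start and thus outside the 1 kb window. Their folds were 3.21 and 3.01, with -log10 q of 2.63 and 1.93. Coverage of the beta cluster in soft 1, soft 2, stiff 1 and stiff 2 was 0.830%, 0%, 0.191% and 0%, which rested on soft 1 and gave p = 1 in the exact permutation test. In the gamma cluster it was 0% in all 4 libraries (p = 1, exact permutation test).

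**Figure D5:**
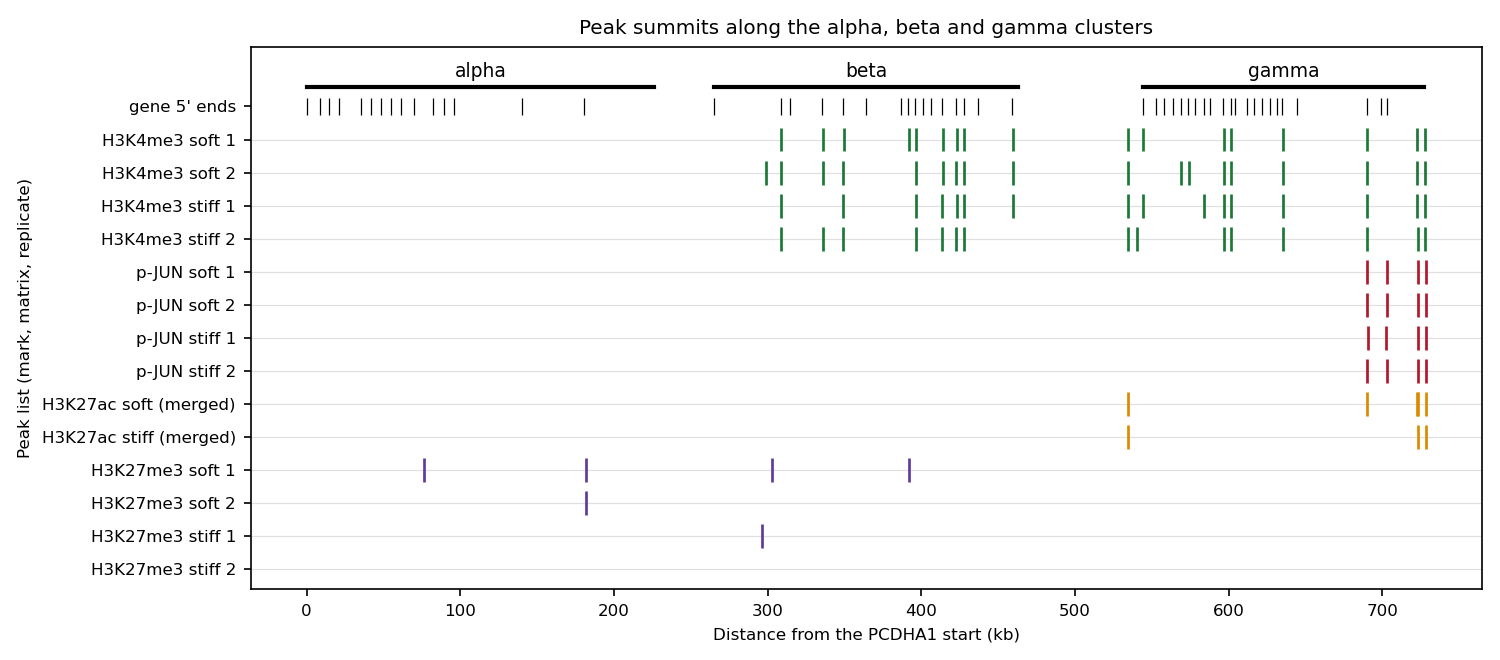
Vertical ticks mark peak summits of each of the 14 lists (y axis) by distance in kb from the PCDHA1 start (x axis), with the 5′ ends of the 53 members and the spans of the 3 clusters above. The alpha span holds no H3K4me3, p-JUN or H3K27ac tick, the beta span holds H3K4me3, and p-JUN appears at the right end of gamma. The recurrent H3K4me3 and H3K27ac tick between beta and gamma is the promoter of TAF7.

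Measured by covered bases, H3K4me3 was above its share of the genome in beta and gamma and absent from alpha. Counted by gene, beta (43.8% to 56.3% by library) and gamma (18.2% to 27.3%) were below all genes (63.7% to 64.6%). Peaks covered 2.58%, 2.61%, 2.06% and 2.20% of the beta cluster in soft 1, soft 2, stiff 1 and stiff 2, and 2.39%, 2.74%, 2.90% and 2.47% of the gamma cluster. They covered 0% of the alpha cluster in each, and 0.627% to 0.689% of the genome. Nearly all of these peaks were at starts: in the beta cluster a single H3K4me3 peak, in soft 2, lay elsewhere, and in the gamma cluster a single peak in each library did, the one at the intronic site. The beta cluster held neither p-JUN nor H3K27ac in any list. In the gamma cluster p-JUN covered 1.22%, 1.13%, 0.980% and 0.996%, close to its share of the genome (0.902% to 1.02%).

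In all, 35 of 53 members lacked a peak at their starts (no farther than 1 kb) in each of the 14 lists, against 25.3% of protein-coding genes. They were the 15 alpha genes from PCDHA1 to PCDHAC2, the beta genes PCDHB1, PCDHB3, PCDHB6, PCDHB7, PCDHB9, PCDHB10 and PCDHB14, and the gamma genes PCDHGA2, PCDHGA3, PCDHGB1, PCDHGA5, PCDHGA6, PCDHGA8, PCDHGB5, PCDHGA9, PCDHGB6, PCDHGA10, PCDHGB7, PCDHGA12 and PCDHGC4. Farther from the start, PCDHAC2 held the exonic H3K27me3 peaks given above, and an exon of PCDHA10 overlapped an H3K27me3 peak in soft 1 (chr5:140241966-140242318, fold 3.596). The lists hold called peaks only, so signal that was not called could not be assessed.

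Coding genes that flank the clusters carried H3K4me3. The 6 nearest, HARS1, HARS2 and ZMAT2 on the alpha side and DIAPH1, HDAC3 and RELL2 on the gamma side, all had H3K4me3 in 4 libraries, HARS1 with HARS2 and HDAC3 with RELL2 through the same peaks. Of 4 other coding genes between or inside the clusters, TAF7, a subunit of the general transcription factor TFIID, had H3K4me3 in 4 libraries, with folds of 14.3 and 13.4 on soft and 12.4 and 12.1 on stiff, and AC005609.1, ENSG00000279983 and SLC25A2 had no H3K4me3. Among 12 protocadherins outside the clusters, 5 had H3K4me3 in all 4 libraries (PCDH7, PCDH18, PCDH1, PCDH17 and PCDH9), beside 62.8% of all genes, and 7 in at least 1. PCDH9 was the one of them with p-JUN in all 4 libraries, and PCDH1 the one with H3K27me3 in all 4. None of the 12 had H3K27ac in either list, where 21.2% of all genes had it in both.

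All 12 known regulators of the clusters, among them CTCF, the cohesin subunits RAD21, SMC1A and SMC3, the cohesin loader NIPBL, the silencing factor SMCHD1 and the DNA methyltransferases DNMT3A and DNMT3B, had H3K4me3 in all 4 libraries, beside 62.8% of all genes. Of these, 5 also had p-JUN in all 4 libraries, where 38.2% of all genes did, and 6 had H3K27ac in both lists, where 21.2% did. None had H3K27me3, which 10.3% of all genes had in at least 1 library. These counts describe promoters, not protein levels.

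The lists held 18096 to 18857 peaks for H3K4me3, 48163 to 54168 for p-JUN, 18238 and 13322 for H3K27ac, and 19843, 9228, 7104 and 6974 for H3K27me3, of which soft 1 stood apart. Of 10 stellate cell genes, 4 had H3K4me3 in all 4 libraries (ACTA2, COL1A1, PDGFRB and RELN), beside 62.8% of all genes, and 7 in at least 1. HAND2 and LHX2 had it in 2 libraries, COL3A1 in 1, and COL1A2, DES and LRAT in none. H3K27me3 was called at RELN and LHX2 in 3 libraries and at LRAT in 1. None of 6 hepatocyte genes had H3K4me3. Of the 15 endothelial, immune, bile duct and neuronal genes found, KDR, CD14, EPCAM and SYT1 had H3K4me3 in all 4. Sequencing depth was not given in the lists.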

How the data were processed

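CUT&Tag libraries of LX-2 cells were analysed from the peak lists that the authors deposited. Per the labels and methods, the authors trimmed reads with Trim Galore, aligned them to hg19 with Bowtie2 and handled duplicates with Picard, and the layout of the lists is that of MACS2. Versions, calling options and control libraries were not given in the sources used here. The deposited columns hold the fold of the summit over local background, -log10 p- and q-values and a score derived from q. None is scaled between libraries. The fold is a ratio with a small constant (pseudocount) added to both parts. Peaks were called per library, except for H3K27ac, whose replicates were merged. Whole fragments at a summit were solved from fold and -log10 p (relative error under 0.0001), which succeeded for 99.98% to 100% of narrow peaks.

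Genes and starts came from GENCODE 44 lifted to GRCh37, and sequences from the GRCh37 genome, whose chromosome lengths contain all peaks. For sequences, the start was the earliest protein-coding transcript start within 300 bases before the first coding base, or otherwise the gene's 5′ end. This choice, the motifs and the choice among CGCT copies were made after sequences were seen. The RefSeq promoter table held 47 members and another build and was not used. Libraries were grouped by the matrix in the labels and compared by two-sided exact permutation tests of the difference of means (scipy 1.17.1). Shares of members carry exact Clopper-Pearson intervals of 95%, covering counting error only.

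Members and gene lists were chosen with earlier results of these data known. Named genes were the 3 members a cluster with the highest mean H3K4me3 fold, members with p-JUN or H3K27ac, up to 5 called in both libraries of a single matrix, and up to 5 with H3K27me3 in all 4 libraries. Other members were named after their values were seen. Scripts (Python 3.11.15, pandas 2.3.3, pysam 0.24.0) were tested on simulated data.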

Additional observations from a re-analysis of the deposited data

How the results depend on the processing

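Of 68 alternative values, 57 kept the direction of the reported value or stayed at 0, 7 moved to or from 0 and 4 reversed. The 57 include p-JUN counts and gamma coverage that stayed at 0 and so had no direction. They also include the replicate block values, which equal the reported difference by construction. The H3K4me3 count of members, 2 lower on stiff, became 0.5 lower with a -log10 q of at least 10 (10 and 13 members on soft, 11 and 11 on stiff) and 1.5 lower with lists of equal length, and ranged from -3 to -1 when a library was left out. The H3K27me3 count difference of -0.5 became 0 with a -log10 q of at least 2 and with lists of equal length, became -1.5 with a 2 kb window (2 and 1 members on soft, 0 and 0 on stiff), and ranged from -1 to 0 without a library (0 without soft 1). The p-JUN difference of 0 became 0.5 at the higher q, since PCDHGC5 was lost in soft 2, and stayed at 0 when any library was left out (range 0 to 0). The H3K27ac difference of -1 became 0 at the higher q and with lists of equal length. H3K27me3 coverage of alpha, -0.281, became -0.0802 percentage points at the higher q (p = 1, exact permutation test) and -0.203 with lists of equal length, and ranged from -0.317 to -0.246 percentage points without a library. Coverage of beta, -0.3197, became 0 at the higher q, 0.0955 with lists of equal length and without soft 1, and ranged from -0.735 to 0.0955 without a library, while gamma stayed at 0 (0 to 0). The H3K4me3 median fold difference ranged from -0.511 (without soft 1) to 1.18, with -0.165 without stiff 2. The causes were not tested.

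With a replicate block, as the mean of differences within a replicate number, the values were -2 for H3K4me3, -0.5 for H3K27me3, 0 for p-JUN, -0.281, -0.3197 and 0 for coverage of alpha, beta and gamma, and 0.337 for the fold. Pairs of libraries shared a number only (correlation of deviations in H3K4me3 calls 0.252 for the 2 numbers), and the smallest exact p was 0.5. Short H3K27me3 lists, the absence of signal below the calling limit and sequence shared between members limit what a missing peak shows.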
